A study of Mus musculus with 4 samples.

Results

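The CXC chemokine ligand genes Cxcl2, Cxcl9, Cxcl10, Cxcl12 and Cxcl16 were read out by gene symbol in both single-cell count tables of the study, as 5 of the 33696 genes counted. They were selected on their levels in these classes of liver cells (CPM by class and library), so the levels below are a description and no test was made on them. The cells were CD45+ cells from the liver of Stab2-CrexERT2; R26-LSL-tdT mice aged 2 months, in which tamoxifen had been given at E9.5 so that cells expressing the Stab2-driven recombinase at that stage, and their descendants, carried tdTomato. Cells were sorted by flow cytometry into a tdTomato+ and a tdTomato- fraction, and 1 gene expression library was made from each. The labels gave the same genotype (S2) and no treatment for both libraries, and gave batch 1 for the former and batch 2 for the latter, so sort and batch cannot be told apart. How many animals were pooled was not given in the sources used here. Stab2 is itself a gene of adult sinusoidal endothelial cells, and 6501 of the 17508 tdTomato+ cells kept here were endothelial-like, against 22 of 18173 tdTomato- cells. Sub-clusters with 100 CPM or more of Ptprc, the gene for CD45, could not take the endothelial name, so a low level in this class was set by the naming. It was 12.8 CPM in the tdTomato+ library (B cell-like cells held 1120 CPM), so the label of immune cells was not borne out for the cells so named. A further 4957 tdTomato+ cells held Ptprc at 1006 CPM beside 736 CPM of the endothelial gene Kdr and were set aside as mixed.

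CXC chemokines are small secreted proteins that guide leukocytes along concentration gradients through receptors on the leukocyte surface. Cxcl2 attracts neutrophils through Cxcr2. Cxcl9 and Cxcl10, together with Cxcl11, are interferon-γ-induced ligands of Cxcr3 and draw in activated T cells and NK cells. Cxcl12 is the ligand of Cxcr4, which keeps leukocytes and progenitors in their niches, and it also binds the scavenging receptor Ackr3. Cxcl16 is made as a membrane-anchored protein that can be shed by the proteases Adam10 and Adam17, and it is the ligand of Cxcr6, a receptor carried by liver-resident lymphocytes. In the liver, sinusoidal endothelial cells line the blood channels and Kupffer cells are the macrophages inside them, so both meet passing lymphocytes.

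The genes Cxcl2, Cxcl9 and Cxcl10 lie on mouse chromosome 5. In GRCm38 with the GENCODE M21 annotation, Cxcl2 occupied chr5:90903871-90905938 on the plus strand, Cxcl9 chr5:92321347-92328079 on the minus strand and Cxcl10 chr5:92346638-92348889 on the minus strand, and 18.6 kb separated Cxcl9 from Cxcl10. Cxcl12 occupied chr6:117168535-117181367 on the plus strand and Cxcl16 chr11:70453983-70459984 on the minus strand. The 250 bases before the RefSeq transcription start are printed for these 3 genes because Cxcl2 on the one hand and Cxcl9 and Cxcl10 on the other stood highest in different classes below. The Cxcl2 window ends at 90903898, past the GENCODE start at 90903871, so its distances count from the RefSeq start. The sequences come from RefSeq (GRCm38.p6), 5′ to 3′ in the direction of transcription, for chr5:90903649-90903898 (Cxcl2, plus strand), chr5:92328080-92328329 (Cxcl9, minus strand) and chr5:92348890-92349139 (Cxcl10, minus strand). Capitals mark matches to the NF-κB motif or to the interferon-stimulated response element, spelled GAAANNGAAA, each searched on both strands.
Cxcl2: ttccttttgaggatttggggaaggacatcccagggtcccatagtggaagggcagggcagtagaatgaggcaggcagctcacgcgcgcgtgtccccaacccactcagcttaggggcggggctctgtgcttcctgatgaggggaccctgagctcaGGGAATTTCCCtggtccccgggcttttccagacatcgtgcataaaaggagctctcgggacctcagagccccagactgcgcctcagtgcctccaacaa
Cxcl9: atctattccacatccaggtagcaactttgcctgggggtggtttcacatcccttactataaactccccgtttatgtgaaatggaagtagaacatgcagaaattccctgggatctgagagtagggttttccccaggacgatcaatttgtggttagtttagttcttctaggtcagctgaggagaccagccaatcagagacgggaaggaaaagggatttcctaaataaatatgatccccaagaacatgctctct
Cxcl10: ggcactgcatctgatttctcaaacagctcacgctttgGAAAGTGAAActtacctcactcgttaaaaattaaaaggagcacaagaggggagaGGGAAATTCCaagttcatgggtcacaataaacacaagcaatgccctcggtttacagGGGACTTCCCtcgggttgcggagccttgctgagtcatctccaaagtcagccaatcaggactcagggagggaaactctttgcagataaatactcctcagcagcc
The Cxcl2 window held 2 overlapping NF-κB matches, on opposite strands, beginning 97 and 96 bases before the start. The Cxcl10 window held 2 NF-κB matches, beginning 159 and 103 bases before the start, and 1 interferon-stimulated response element beginning 213 bases before it. The Cxcl9 window and the Cxcl12 window held no match to these letters. Of 32851 promoters of the same length, 3.9% held the NF-κB motif and 2.98% the interferon-stimulated response element. A match is a description of the letters and not a measured site.

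The libraries held 203366009 (tdTomato+) and 156771260 (tdTomato-) UMIs, the unique molecular identifiers that count captured transcripts, in 17957 and 18444 barcodes. The cells kept had medians of 9082 and 7168 UMIs. The libraries shared 84 barcodes. Levels are given as CPM, the counts of a gene in all cells of a class and library scaled by the total UMIs of those cells (counts per 1e6 UMIs), with the exact Poisson 95% interval in parentheses. Shares are the percentage of cells with at least 1 UMI of the gene after every cell had been thinned to 1000 UMIs. These intervals cover counting error only, since there was 1 library per condition, and cells are not replicates. Cells were clustered without any CXC ligand or receptor gene, named from fixed markers with the ending -like, and 9787 cells were set aside because they carried RNA of 2 lineages or could not be named. CPM of a 5′ count does not rank one gene against another, so each gene was compared across classes only.

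B cell-like cells were taken as the check on free RNA, which is RNA from burst cells caught in a droplet. In 269 tdTomato+ B cell-like cells Cxcl2 was at 0.579 CPM, Cxcl9 at 1.74, Cxcl10 at 1.74, Cxcl12 at 0 and Cxcl16 at 3.47 CPM. In 344 tdTomato- B cell-like cells Cxcl2, Cxcl9, Cxcl10 and Cxcl12 were at 0 counts, which allows a level of up to 1.38 CPM, and Cxcl16 was at 1.38 CPM (3 counts). After thinning, no B cell-like cell of either library held a UMI of Cxcl2, Cxcl9, Cxcl10 or Cxcl12. B cell-like cells had a median depth of 6204 (tdTomato+) and 5747 UMIs (tdTomato-), and that of the other classes described below lay between 4215 and 33539, apart from mesenchymal-like (1654) and cholangiocyte-like cells (36295). Values at or below these levels were read as background. Other classes may hold more free RNA, so the B cell-like level is no upper limit for them. A sum of 8 endothelial genes stood at 77 CPM in tdTomato+ B cell-like cells, against 242 CPM in αβ T cell-like and 638 CPM in Kupffer-like cells.

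**Figure D1:**
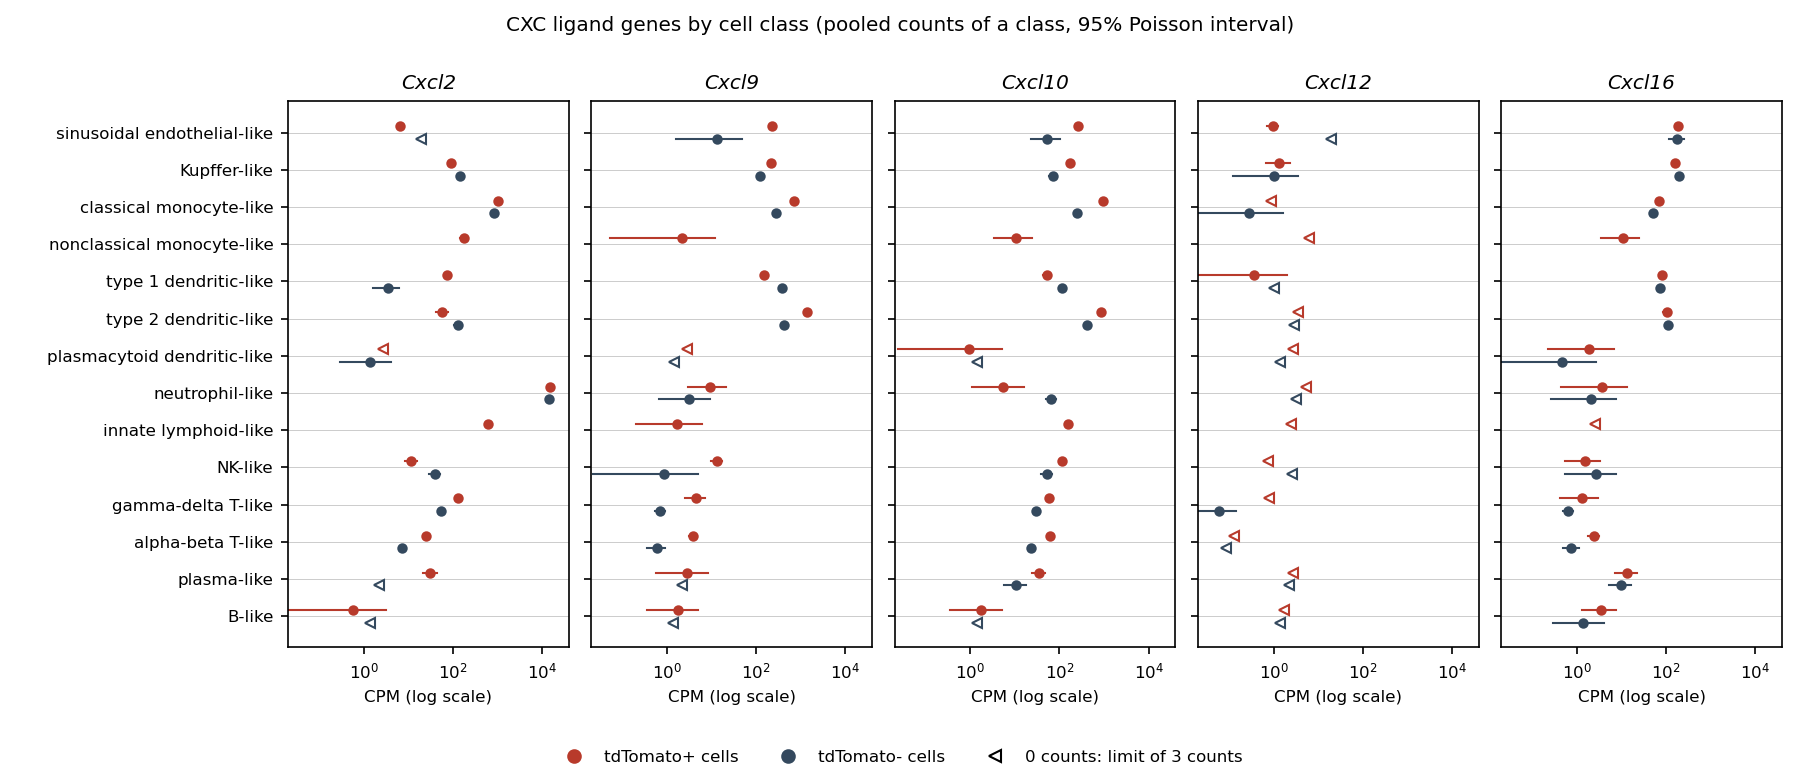
Level of each CXC ligand gene (CPM, log axis) in each class of cells, with a red point for tdTomato+ and a dark point for tdTomato- cells, bars for the exact Poisson 95% interval and an open triangle at the level of 3 counts where no count was found; library groups under 20 cells are left out. Cxcl2 stood at 14785 and 14395 CPM in neutrophil-like cells, Cxcl9 and Cxcl10 were high in monocyte-like, type 2 dendritic-like and tdTomato+ endothelial-like cells, and Cxcl16 in endothelial-like, Kupffer-like and dendritic-like cells.

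The level of Cxcl2 was highest in neutrophil-like cells of both fractions. These cells held 21.8% of the tdTomato+ and 42.2% of the tdTomato- Cxcl2 counts, while tdTomato+ cells set aside with endothelial RNA held 51%. The level was 14785 CPM (14466–15109) among 118 tdTomato+ cells, against 14395 CPM (14154–14639) among 176 tdTomato- cells, and 80.6% and 88.6% of the thinned cells held a UMI. Among named classes with at least 20 cells in a library, classical monocyte-like cells followed, with 1010 CPM (977–1045) among 225 tdTomato+ cells, against 831 CPM (801–861) among 238 tdTomato- cells, and with shares of 31.3% and 22.7%. Without thinning, 82.2% and 90.3% of the neutrophil-like cells held a UMI, against 46.2% and 34% of the classical monocyte-like cells. Most neutrophil-like cells thus carried the gene, and a minority of the monocyte-like cells.

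Within the neutrophil-like cells Cxcl2 was lower where genes of granulocyte immaturity were high. A sub-cluster led by Ngp, Ltf and Camp, genes of the granules that immature neutrophils build in the marrow, held 1722 CPM (1540–1919) among 18 tdTomato+ cells, against 3749 CPM (3560–3945) among 32 tdTomato- cells. A sub-cluster led by S100a9, S100a8 and Retnlg held 20276 CPM (19381–21202) among 30 tdTomato+ cells, against 20113 CPM (19667–20565) among 99 tdTomato- cells. A sub-cluster led by Il1r2, Il1b and Clec4e, genes of activated neutrophils, held 22044 CPM (21486–22613) among 70 tdTomato+ cells, against 26559 CPM (25778–27359) among 45 tdTomato- cells. In both fractions the granule-gene cells lay far below the other sub-clusters, and the share of cells with a UMI, not thinned, was 88.9% and 87.5% there, so most of these cells held the gene at a low level.

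Kupffer-like and dendritic-like cells carried less Cxcl2. Kupffer-like cells were at 90.9 CPM (84.8–97.3) among 728 tdTomato+ cells, against 142 CPM (126–160) among 210 tdTomato- cells, and 4.16% and 5.53% of thinned cells held a UMI. In the tdTomato+ library the next classes, type 1 dendritic-like cells at 74.4 CPM (64.6–85.2) and type 2 dendritic-like cells at 57.7 CPM (42.5–76.5), overlapped in their intervals, and the former overlapped Kupffer-like cells. One cell held 65.9% of the type 1 dendritic-like counts. Nonclassical monocyte-like cells were at 180 CPM (144–223) in 49 tdTomato+ cells and at 1822 CPM (1585–2084) in 12 tdTomato- cells, above the tdTomato- classical monocyte-like level, with 49.5% of the counts in 1 cell. Endothelial-like cells were at 6.57 CPM (5.89–7.31) in the tdTomato+ library and at 0 counts in the 22 tdTomato- cells.

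Lymphocytes with an Il17a-producing or innate profile also held Cxcl2. Il17a encodes interleukin-17A, a cytokine that raises neutrophil chemoattractants in surrounding tissue. Il17a-rich γδ T cell-like sub-clusters, those with at least 1000 CPM of Il17a over both libraries, held Cxcl2 at 632 CPM (577–690) among 63 tdTomato+ cells, against 271 CPM (263–279) among 1349 tdTomato- cells. The remaining γδ T cell-like cells held 0 counts in 307 tdTomato+ cells, which allows up to 0.968 CPM, and 2.27 CPM (1.92–2.66) in 7650 tdTomato- cells. The log2 ratio between the Il17a-rich and the remaining cells was 6.90 (6.67–7.14) in the tdTomato- library and moved between 4.73 and 8.23 over the alternative settings. Cxcl2 was carried by a minority of the Il17a-rich cells, with shares of 22.2% and 8.12%, and the richest cell held 19.6% and 7.71% of the counts. S100a8, which marks neutrophil RNA, was at 1.27 and 0.307 CPM in these Il17a-rich cells, and neutrophil RNA in the proportion set by S100a8 and S100a9 would have brought 0.343 and 0.046 CPM of Cxcl2.

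Further lymphocyte groups held Cxcl2 as well. Within the αβ T cell-like cells, those of a cluster shared with Il17a-rich γδ cells and innate lymphoid-like cells stood at 381 CPM (348–415) of Cxcl2 in 116 tdTomato+ cells and at 465 CPM (389–551) in 35 tdTomato- cells, of which 1 cell held 61.4%. All other αβ T cell-like cells stood at 3.95 CPM (3.17–4.87) and 3.74 CPM (3.13–4.43). The cluster's αβ T cell-like cells held Il17a at 115 and 169 CPM. They held Trac, the constant gene of the αβ receptor, at 95.1 and 102 CPM, and Trdc, that of the γδ receptor, at 4.49 and 166 CPM, so that the αβ name was not borne out for the 35 tdTomato- cells. Trdc stood at 6.87 and 60 CPM in the other αβ T cell-like cells and at 136 and 413 CPM in the γδ T cell-like cells that were not Il17a-rich. Innate lymphoid-like cells stood at 606 CPM (563–652) in 154 tdTomato+ cells, where 17.6% held a UMI, whereas the 10 tdTomato- cells had 89% of their counts in 1 cell. Those 10 cells held the T cell gene Cd3e at 719 CPM, against 9.96 CPM in the 154, so the innate lymphoid name was not borne out for them. NK-like cells were at 11.5 CPM in the tdTomato+ library and at 39.3 CPM in the tdTomato- library, where 44 of 45 counts came from 1 cell.

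**Figure D2:**
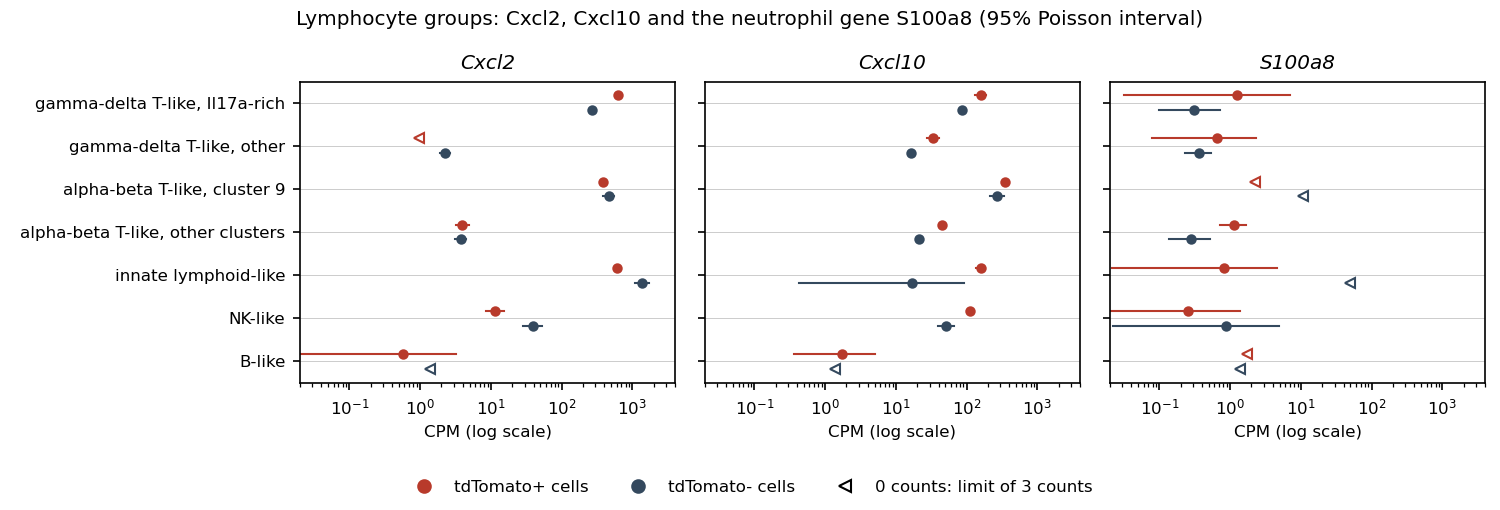
Level of Cxcl2, Cxcl10 and the neutrophil gene S100a8 (CPM, log axes) in lymphocyte groups, with a red point for tdTomato+ and a dark point for tdTomato- cells, bars for the exact Poisson 95% interval and an open triangle at the level of 3 counts where no count was found; the αβ row of cluster 9 is the cluster shared with Il17a-rich γδ cells. Il17a-rich γδ cells held Cxcl2 at 632 and 271 CPM and S100a8 at 1.27 and 0.307 CPM, against 0 counts and 2.27 CPM of Cxcl2 in the remaining γδ cells.

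Cxcl9 and Cxcl10, both ligands of Cxcr3, were both highest in classical monocyte-like and type 2 dendritic-like cells of the tdTomato+ library. In the tdTomato- library this held for Cxcl10, whereas Cxcl9 was higher in type 1 dendritic-like than in classical monocyte-like cells. The border between monocyte-like and type 2 dendritic-like cells shifted between clusterings, so they are also given as 1 class: Cxcl9 stood at 850 CPM (822–878) among 268 tdTomato+ cells, against 317 CPM (301–334) among 292 tdTomato- cells, and Cxcl10 at 939 CPM (911–969) and 279 CPM (264–295). At a coarser clustering (resolution 0.5) 133 of these 560 cells formed a group that took no name and held 91% of their Cxcl9 and 82.4% of their Cxcl10 counts, so that the tdTomato+ level in the named remainder was 27.1 CPM of Cxcl9 and 98.8 CPM of Cxcl10. With classes from a marker gate per cell the tdTomato+ levels were 519 and 642 CPM.

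With the classes kept apart, Cxcl9 was at 1396 CPM (1316–1478) in 43 tdTomato+ type 2 dendritic-like cells, with a share of 25.6%, and at 427 CPM (388–469) in 54 tdTomato- cells, with a share of 7.41%. One cell held 32.7% of the former and 1 cell 63.3% of the latter counts, and with CXC genes among the clustering genes the class stood at 52.2 and 87.6 CPM. Classical monocyte-like cells were at 717 CPM (689–746) and 285 CPM (268–303), with shares of 15.2% and 5.04%. Endothelial-like cells at 226 CPM (222–230) and Kupffer-like cells at 215 CPM (205–224) did not differ beyond their intervals in the tdTomato+ library, and type 1 dendritic-like cells lay below them at 153 CPM (139–168). The Kupffer-like level rested on few cells, with a share of 6.89% and 16.2% of the counts in 1 cell. In the tdTomato- library type 2 dendritic-like cells and type 1 dendritic-like cells, at 386 CPM (364–409), overlapped and lay above classical monocyte-like cells, and Kupffer-like cells were at 124 CPM (109–140). The only 2 counts in the 22 tdTomato- endothelial-like cells gave 13.1 CPM (1.58–47.2). Lymphocytes held little Cxcl9, with 13 CPM in tdTomato+ NK-like cells, 4.37 in γδ T cell-like cells and 3.89 in αβ T cell-like cells.

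Cxcl10 reached further into the lymphocytes than Cxcl9. It was at 962 CPM (929–996, tdTomato+) and 243 CPM (227–259, tdTomato-) in classical monocyte-like cells, with shares of 18.3% and 8.82%. Type 2 dendritic-like cells were at 846 CPM (785–911) and 406 CPM (368–447), but 1 cell held 56.1% of the former and 1 cell 77.6% of the latter counts. In the tdTomato+ library endothelial-like cells followed at 264 CPM (259–268) with a share of 12.1%. Kupffer-like cells at 176 CPM (168–185) and innate lymphoid-like cells at 159 CPM (137–183) overlapped. NK-like cells were at 112 CPM (102–123), and αβ T cell-like cells at 61.8 CPM (58.7–65.1), γδ T cell-like cells at 58.6 CPM (51.2–66.7) and type 1 dendritic-like cells at 51.5 CPM (43.4–60.6) overlapped. Few lymphocytes carried the gene, with tdTomato+ shares of 7.19% in innate lymphoid-like, 4.47% in NK-like, 2.98% in γδ T cell-like and 2.39% in αβ T cell-like cells. All of these levels lay above the 1.74 CPM of tdTomato+ B cell-like cells, and plasmacytoid dendritic-like cells were at 0.922 CPM (1 count). The 49 tdTomato+ nonclassical monocyte-like cells held 1 count of Cxcl9 and 5 of Cxcl10.

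Among lymphocytes Cxcl10 was higher in the same Il17a-rich γδ cells as Cxcl2. They stood at 158 CPM (132–189) for tdTomato+ and 86.6 CPM (82.2–91.3) for tdTomato- cells, against 33.2 and 16.4 CPM in the remaining γδ cells, a log2 ratio of 2.25 (1.86–2.64) and 2.40 (2.29–2.52). The αβ T cell-like cells of the cluster shared with Il17a-rich γδ cells stood at 348 CPM (317–381) and 268 CPM (211–335), against 44.7 and 21.3 CPM in all other αβ T cell-like cells. Both genes were therefore lower outside these groups. In the tdTomato- library Cxcl2, at 2.27 CPM in the remaining γδ and 3.74 CPM in the other αβ T cell-like cells, still lay above the 1.38 CPM that the absence of counts allows in B cell-like cells.

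Within the myeloid classes a few sub-clusters carried most of both Cxcr3 ligands. A monocyte-like sub-cluster led by F13a1, Ms4a4c and Lyz2, with Cxcl10 itself among its 10 leading genes, held Cxcl9 at 2049 CPM (1951–2149) among 49 tdTomato+ cells, against 879 CPM (792–974) among 26 tdTomato- cells. Its Cxcl10 stood at 3284 CPM (3161–3411) and 1566 CPM (1448–1691). A further monocyte-like sub-cluster, led by F13a1, Lyz2 and Fn1, held 2.14 and 2.1 CPM of Cxcl9 in 64 and 102 cells, but 651 CPM (600–704) and 995 CPM (944–1048) of Cxcl2. The sub-cluster rich in Cxcr3 ligands held more Cxcl2, at 1436 CPM (1355–1521) and 1450 CPM (1337–1571), so Cxcl2 was found in both groups of monocyte-like cells and Cxcl9 mainly in one. A group of 15 tdTomato+ Kupffer-like cells led by Ccl24, Ubd and Apol7c held Cxcl9 at 2972 CPM (2805–3146), with a UMI in every cell, and Cxcl10 at 748 CPM (665–838). A type 1 dendritic-like sub-cluster led by Ccl22 and Cxcl11 held Cxcl9 at 1170 CPM among 33 tdTomato+ cells, against 2955 CPM among 17 tdTomato- cells, of which 1 cell held 61% of the latter counts.

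**Figure D3:**
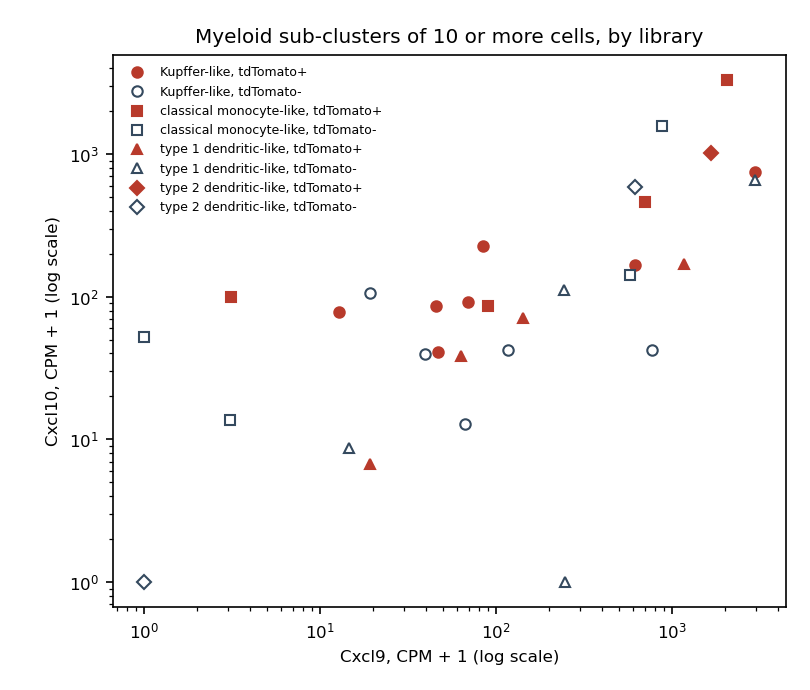
Cxcl9 against Cxcl10 level (CPM + 1, log axes) in sub-clusters of Kupffer-like, monocyte-like and dendritic-like cells with 10 or more cells; each point is 1 sub-cluster in 1 library, filled for tdTomato+ and open for tdTomato-. The points highest in both genes include the monocyte-like sub-cluster at 2049 and 3284 CPM and the Kupffer-like one at 2972 and 748 CPM (tdTomato+), while a few sub-clusters held Cxcl9 with little Cxcl10.

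In most classes cells that held Cxcl9 more often held Cxcl10 as well, given here as a description at 1000 UMIs per cell. Among tdTomato+ classical monocyte-like cells 58.8% of the 34 cells with Cxcl9 also held Cxcl10, against 11.1% of the 190 cells without Cxcl9. The tdTomato- values were 33.3% of 12 cells against 7.52% of 226 cells. Among tdTomato+ endothelial-like cells 21% of 819 cells with Cxcl9 held Cxcl10, against 10.8% of 5654 cells without it, and among tdTomato+ Kupffer-like cells 18.8% of 48 against 6.93% of 649. In tdTomato- Kupffer-like cells few thinned cells held Cxcl10, with 0% of 12 cells against 2.14% of 187. Not thinned, the values there were 23.5% of 17 cells with Cxcl9 against 13.7% of those without. Cxcl10 was also held more often by classical monocyte-like cells with Cxcl2 than by those without, at 24.3% against 15.6% in the tdTomato+ and 14.8% against 7.07% in the tdTomato- library. Cxcl16 did not divide the endothelial-like cells in this way, since Cxcl10 was held by 13.2% of the cells with Cxcl16 and by 11.9% of those without.

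RNA released by endothelial cells was weighed by the summed level of 8 endothelial genes (Stab2, Kdr, Gpr182, Clec4g, Ehd3, Ptprb, Egfl7 and Cdh5), which was 20371 CPM in tdTomato+ endothelial-like cells and 108 CPM in classical monocyte-like, 638 CPM in Kupffer-like, 121 CPM in NK-like and 242 CPM in αβ T cell-like cells. Scaled in that proportion, endothelial RNA would have brought 1.20 CPM of Cxcl9 and 1.40 CPM of Cxcl10 to the monocyte-like cells, against 717 and 962 CPM measured. Kupffer-like cells would have received 7.08 CPM of Cxcl9, 8.26 of Cxcl10 and 5.92 of Cxcl16, against 215, 176 and 158 CPM measured. NK-like cells would have received 1.57 CPM of Cxcl10, against 112 measured, and αβ T cell-like cells 3.14, against 61.8. For Cxcl9 and Cxcl16 in αβ T cell-like cells the scaled values, 2.69 and 2.25 CPM, were near the 3.89 and 2.37 CPM measured.

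Endothelial-like cells of the tdTomato+ library differed in Cxcl9 along the porto-central axis of the sinusoid. Blood enters the sinusoid at the portal side and leaves at the central vein, and Ntn4, Dll4, Msr1 and Ltbp4 mark endothelial cells of the portal and middle stretch, Wnt2, Kit and Cdh13 those of the central stretch, and Rspo3, Vwf and Selp those at the central vein. The 2317 cells of the cluster with the highest Ntn4 (668 CPM), Msr1 (802 CPM) and Ltbp4 (582 CPM) held Cxcl9 at 405 CPM (396–414), with a share of 19.4%. A cluster of 1989 cells with the highest Stab2 of the 4 large clusters (4689 CPM) held 205 CPM (197–212) and 13.3%. The 1660 cells with the highest Wnt2 (898 CPM) of the 4 held 84.3 CPM (79.8–89.1) and 5.06%, and the 261 cells rich in Rspo3 (6811 CPM), Vwf (1177 CPM) and Selp (1812 CPM) held 17.8 CPM (13–23.8) and 1.15%. The intervals of these 4 clusters did not overlap.

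Cxcl10 and Cxcl16 did not follow the same order. Cxcl10 stood at 422 CPM (412–432) in the portal-marked cluster and at 168 CPM (162–175), 185 CPM (179–192) and 186 CPM (170–204) in the Stab2-rich, Wnt2-rich and Rspo3-rich cluster, and the interval of the last overlapped both others. Cxcl16 stood at 189 CPM (182–195), 210 CPM (202–217), 188 CPM (182–195) and 149 CPM (135–165), so that the portal-marked and the Wnt2-rich cluster overlapped. A cycling cluster of 109 cells held Cxcl9 at 191 CPM (170–214), Cxcl10 at 294 CPM (268–322) and Cxcl16 at 115 CPM (98.5–133). The remaining clusters of 122 and 43 cells were shallow, with medians of 3476 and 1822 UMIs.

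**Figure D4:**
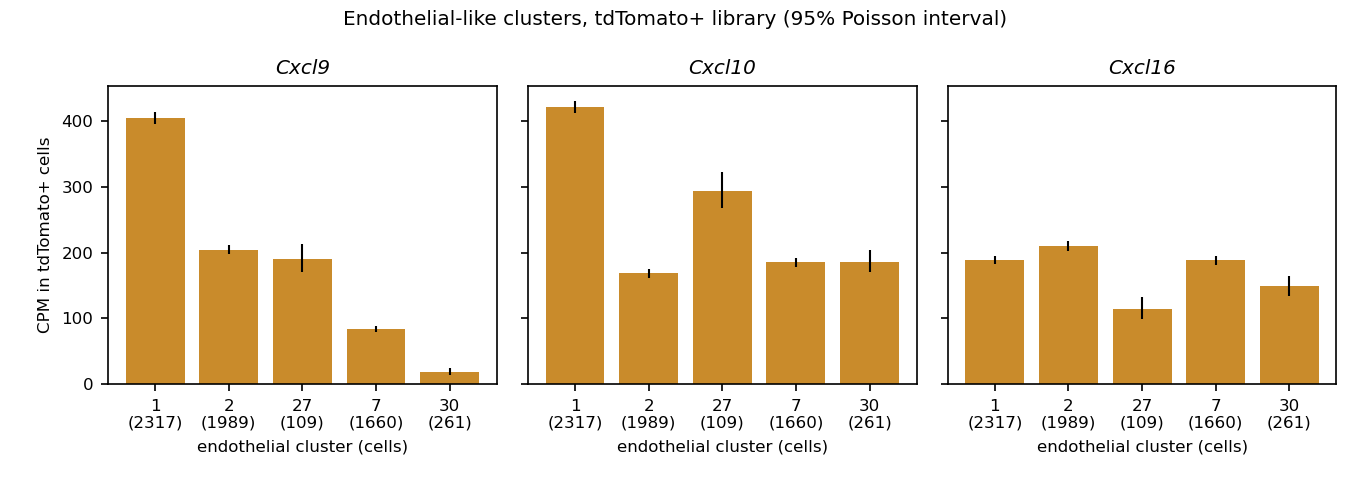
Level of Cxcl9, Cxcl10 and Cxcl16 (CPM, bars from 0) in clusters of tdTomato+ endothelial-like cells, with cell numbers in parentheses and black lines for the exact Poisson 95% interval; from left to right the clusters are the portal-marked, the Stab2-rich, the cycling, the Wnt2-rich and the Rspo3-rich one. Cxcl9 ran from 405 CPM in the portal-marked to 17.8 CPM in the Rspo3-rich cluster, and Cxcl16 from 115 to 210 CPM in the clusters shown.

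Cells were also divided without clusters, into those with a UMI of any portal or middle marker and no central one, and the reverse. Of the 6501 cells 5670 held markers of both sides, with Cxcl9 at 229 CPM, and fell outside this division. The 505 portal-marked cells held Cxcl9 at 286 CPM (267–306) and the 321 central-marked cells at 57 CPM (46.9–68.7), a log2 ratio of 2.33 (2.04–2.63). For Cxcl10 the levels were 299 and 146 CPM, a log2 ratio of 1.03 (0.83–1.23), and for Cxcl16 they were 188 and 173 CPM, a log2 ratio of 0.13 (−0.07–0.33). With endothelial cells taken from a marker gate per cell the Cxcl9 ratio was 0.79. In the same division Cxcl1, a further Cxcr2 ligand, had a log2 ratio of 1.84 (1.32–2.38) and Fos, an immediate-early gene of cell activation and handling, 1.09 (1.00–1.18). Irf1, an interferon-response transcription factor, had 0.47 (0.31–0.63) and Gbp2, an interferon-γ-induced GTPase, −0.12 (−0.46–0.23). The part of the Fos difference in the Cxcl9 difference was not tested.

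Cxcl16 was a gene of endothelial and antigen-presenting cells. Endothelial-like cells held 189 CPM (185–193) in the tdTomato+ library (6501 cells) and 177 CPM (116–257) in the other (22 cells), with 158 CPM (149–166) and 194 CPM (175–215) in Kupffer-like cells. The shares were 16.7% in tdTomato+ endothelial-like and 14.8% and 19.1% in Kupffer-like cells, and without thinning 70.5%, 63% and 63.8%. Type 2 dendritic-like cells were at 105 CPM (83.8–129) and 113 CPM (92.9–135). Type 1 dendritic-like cells, at 81.5 CPM (71.3–92.8) and 71.8 CPM (62.4–82.2), and classical monocyte-like cells, at 67.8 CPM (59.4–77.1) and 50.4 CPM (43.2–58.4), overlapped in the tdTomato+ but not in the tdTomato- library. No single cell held more than 16.5% of the counts in any of these 5 classes. NK-like, γδ T cell-like, αβ T cell-like, innate lymphoid-like and plasmacytoid dendritic-like cells were at 2.62 CPM or less, at or under the B cell-like level of the tdTomato+ library. Only 7 tdTomato+ and 10 tdTomato- mature dendritic-like cells were found, and they held Cxcl16 at 718 CPM (528–955) and 966 CPM (803–1152).

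Cxcl12 was scarcely detected, with 95 counts in the tdTomato+ and 53 in the tdTomato- cells. Endothelial-like cells held 49 of these tdTomato+ counts, or 0.947 CPM (0.701–1.25), and 18 of the 49 lay in the Rspo3-rich cluster, which stood at 6.97 CPM against 0.207 to 0.851 CPM in the other 3 large clusters. Of the 49 counts 14 came from 1 cell, so the levels by cluster rest on few counts and cells. Kupffer-like cells were at 1.32 CPM (12 counts) and 0.999 CPM (2 counts), and 28 tdTomato+ cholangiocyte-like cells at 7.81 CPM (8 counts). NK-like, αβ T cell-like and B cell-like cells held no count in either library. Mesenchymal-like cells, the known producers of Cxcl12 in many tissues, were represented by 32 tdTomato+ and 2 tdTomato- cells after the CD45 sort and gave 1 tdTomato+ count.

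The libraries were compared within each class that had at least 20 cells in both, for genes with at least 10 CPM in either. A gene was counted as higher or lower where its CPM differed at least 2-fold and the interval of the ratio, an exact conditional binomial 95% interval, did not include no change. In Kupffer-like cells this held for 3.24% of all genes and for 1 of 4 CXC ligand genes tested, in classical monocyte-like cells for 2.01% and 2 of 4, in type 2 dendritic-like cells for 8.27% and 3 of 4, and in type 1 dendritic-like cells for 3.1% and 3 of 4. In neutrophil-like cells the values were 9.27% and 1 of 2, in NK-like cells 5.22% and 3 of 3, in αβ T cell-like cells 0.871% and 2 of 2, and in γδ T cell-like cells 2.97% and 1 of 2. In endothelial-like cells they were 10.1% and 2 of 3, and in plasma cell-like cells 14.6% and 2 of 3. No ligand gene reached 10 CPM in B cell-like or plasmacytoid dendritic-like cells, where 3.29% and 2.84% of all genes were called. Since the genes were chosen with these levels known, the counts describe them and nothing is read from them.

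Cxcl10 was the gene most often higher in the tdTomato+ library, in 7 of 10 classes tested and lower in 2. Its log2 ratio was 1.99 (1.88–2.10) in classical monocyte-like cells, 1.33 (1.08–1.59) in Kupffer-like cells, 1.12 (0.72–1.53) in NK-like cells and 1.41 (1.29–1.54) in αβ T cell-like cells. In γδ T cell-like cells it was 0.96 (0.76–1.16), under the 2-fold limit. In monocyte-like and type 2 dendritic-like cells as 1 class it was 1.75 (1.66–1.84), which became −0.48 at the coarser clustering that left the 133 ligand-rich cells without a name. The ratio in neutrophil-like cells, −3.60, rested on 1 cell that held 88.7% of the tdTomato- counts, and without the richest cell of each library neither of the 2 lower calls remained, whereas 7 higher calls were counted.

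Cxcl9 was higher in the tdTomato+ library in 4 of 6 classes tested and lower in 1. The log2 ratio was 1.42 (1.33–1.51) in monocyte-like and type 2 dendritic-like cells as 1 class. In type 2 dendritic-like cells alone it was 1.71 (1.55–1.87), and −0.75 with CXC genes among the clustering genes. In Kupffer-like cells it was 0.79 (0.60–0.99), and 1.33 (1.08–1.59) without the richest cell of each library, of which the tdTomato- cell held 42.7% of the counts. Both Kupffer-like values rested on few cells, with shares of 6.89% (tdTomato+) and 6.03% (tdTomato-). The part of the tdTomato+ Kupffer-like group led by Ccl24, Ubd and Apol7c in this ratio was not tested. In endothelial-like cells it was 4.11 (2.26–7.16), on 2 tdTomato- counts. The opposite direction in type 1 dendritic-like cells, −1.33 for Cxcl9 and −1.11 for Cxcl10, was not stable: both ratios were above 0 with the mean over cells or with thinned counts.

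Cxcl16 was called in none of the 6 classes tested, with log2 ratios from −0.30 to 0.43. The nearest to a difference were −0.30 (−0.47 to −0.14) in Kupffer-like cells and 0.43 (0.14–0.72) in classical monocyte-like cells. Cxcl2 was called higher in 4 and lower in 2 of 9 classes. In neutrophil-like cells its ratio was 0.04 (−0.00–0.08) and in classical monocyte-like cells 0.28 (0.21–0.35). In αβ T cell-like cells it was 1.77 (1.56–1.99). Of these cells 116 of 2394 tdTomato+ and 35 of 3678 tdTomato- cells belonged to the cluster shared with Il17a-rich γδ cells, and the levels inside and outside that cluster overlapped between the libraries. The part of this make-up in the ratio was not tested.

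**Figure D5:**
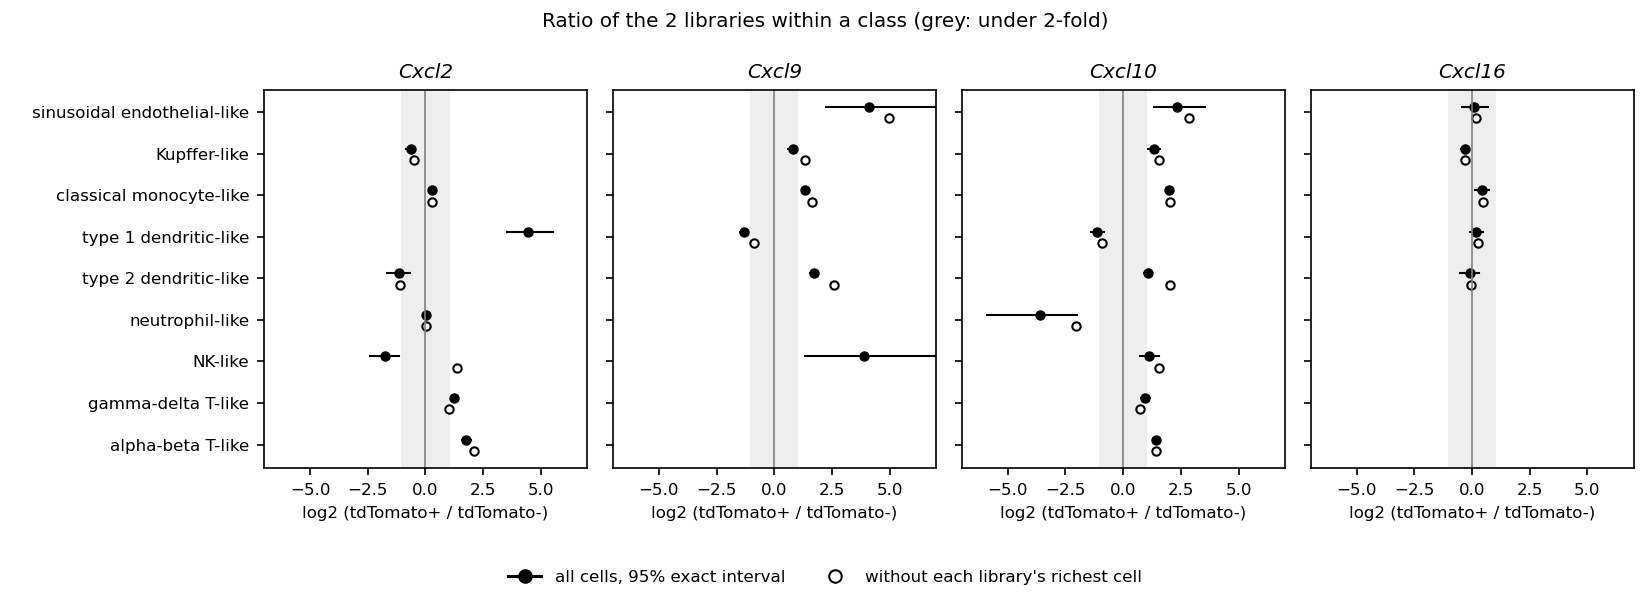
Log2 ratio of tdTomato+ over tdTomato- level for each CXC ligand gene and class tested (plasma cell-like cells not drawn), with a filled point and its exact conditional binomial 95% interval for all cells, an open point without the richest cell of each library, and grey for less than 2-fold; 2 intervals run past the axis. Cxcl10 lay above 0 in monocyte-like, Kupffer-like, NK-like and αβ T cell-like cells (1.99, 1.33, 1.12 and 1.41), Cxcl16 lay between −0.30 and 0.43, and NK-like Cxcl2 changed sign without the richest cell.

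Genes of the interferon-γ pathway were read beside Cxcl9 and Cxcl10: Ifng, its receptor genes Ifngr1 and Ifngr2, Irf1, Cd274 and Gbp2. Gbp2 was the one called higher in the tdTomato+ library in both classical monocyte-like and type 2 dendritic-like cells, with 392 against 147 CPM in classical monocyte-like cells (log2 ratio 1.41, 1.26–1.56) and 446 against 127 CPM in type 2 dendritic-like cells (1.81, 1.52–2.11). Ifng was lower in the tdTomato+ type 2 dendritic-like cells, at 0 counts against 14.7 CPM, and T cell genes moved with it: Cd3e stood at 13.2 against 153 CPM, Cxcr6 at 0 counts against 30.3 CPM and Cxcr3 at 4.81 against 25.4 CPM. In type 1 dendritic-like cells Ifng was called lower as well, at 1.79 against 46 CPM. Cd3e stood there at 5 against 60.1 CPM and Cxcr6 at 5 against 13.7 CPM, while Cxcr3 was not called. The part of this T cell RNA in the values of both dendritic-like classes, with their Cxcl9, Cxcl10 and Cxcl11 ratios, was not tested. Irf1 stood at 539 against 344 CPM in classical monocyte-like cells (0.65, 0.54–0.75) and Cd274, the gene of the checkpoint ligand PD-L1, at 140 against 70.9 CPM (0.98, 0.76–1.21), both under the 2-fold limit. In NK-like cells Gbp2 was higher as well, at 59.9 against 18.3 CPM (1.71, 1.06–2.42). Neutrophil-like cells, where Cxcl10 was called lower, had Gbp2 at 65.1 against 25.4 CPM (1.36, 0.57–2.17). Cd274 stood there at 390 against 167 CPM (1.22, 0.92–1.53), and both were called higher. Plasma cell-like cells, where Cxcl10 was called higher, had Gbp2 called lower, at 19.5 against 39.3 CPM (−1.01, −1.81 to −0.26). In Kupffer-like cells Gbp2 stood at 90.8 against 49 CPM (0.89, 0.59–1.21), which was no call, and in αβ and γδ T cell-like cells none of these genes was called. Ifng itself, which encodes interferon-γ, stood at 796 and 722 CPM in NK-like cells, at 505 and 629 CPM in γδ T cell-like cells and at 346 and 400 CPM in αβ T cell-like cells.

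Early inflammatory genes (Nfkbia, Nfkbiz, Tnfaip3, Tnf, Il1b, Ccl3, Ccl4, Fos, Jun and Egr1) were read beside Cxcl2. Over all genes, the shares called were 2.01% in classical monocyte-like, 9.27% in neutrophil-like, 10.1% in endothelial-like and 3.24% in Kupffer-like cells. They were 0.871% in αβ and 2.97% in γδ T cell-like cells. In classical monocyte-like cells 1 of 10 was higher in the tdTomato+ library, Tnf, with a list median of 0.05 against 0.02 over all genes. In neutrophil-like cells 3 of 10 were higher, the chemokine genes Ccl3 and Ccl4 and the immediate-early gene Egr1, with a median of 0.51 against 0.07, while Cxcl2 differed by less than the 2-fold limit. In endothelial-like cells Fos and Egr1 were lower among 6 tested, with a median of −0.67 against 0.05, beside 22 tdTomato- cells. In Kupffer-like cells 1 of 10 was lower, Ccl4, with a median of −0.59 against −0.01. In αβ and γδ T cell-like cells none of 9 was called. Type 2 dendritic-like cells had Il1b and Ccl4 lower among 10 tested, beside 8.27% of all genes called. Egr1 alone was lower among 9 in NK-like (5.22% of all genes) and plasmacytoid dendritic-like cells (2.84%). It alone was higher among 7 in plasma cell-like cells (14.6%).

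The receptors of these ligands were read in the same classes. Cxcr2, the receptor for Cxcl2, stood at 1038 and 1239 CPM in neutrophil-like cells, the class highest in Cxcl2. Cxcr3, the receptor for Cxcl9 and Cxcl10, stood at 205 and 117 CPM in NK-like, 188 and 215 CPM in γδ T cell-like and 166 and 181 CPM in αβ T cell-like cells, at 109 and 123 CPM in plasmacytoid dendritic-like cells and at 103 and 99 CPM in type 1 dendritic-like cells. Cxcr4, the receptor for Cxcl12, stood at 741 and 547 CPM in neutrophil-like and 407 and 574 CPM in B cell-like cells. It was called lower in the tdTomato+ library in 6 classes, namely NK-like, γδ T cell-like, Kupffer-like, plasmacytoid dendritic-like, type 2 dendritic-like and endothelial-like cells. Its levels were 43.1 against 105 CPM in NK-like cells (log2 ratio −1.28, −1.62 to −0.93) and 30.6 against 71.7 CPM in γδ T cell-like cells (−1.23, −1.50 to −0.97). The Kupffer-like call (−1.36, −1.93 to −0.77) rested on low levels, with 20.5 CPM in tdTomato- cells. The endothelial-like call, 2.13 against 19.6 CPM, rested on 22 tdTomato- cells, where 19.6 CPM is the level of 3 counts. Cxcr4 was not called in the other classes tested. Its ratio there was −0.97 in αβ T cell-like, −0.79 in classical monocyte-like and −0.49 in B cell-like cells. The ratio was above 0 in plasma cell-like (0.87), neutrophil-like (0.44) and type 1 dendritic-like cells (0.11). Cxcr6, the receptor for Cxcl16, stood at 467 and 528 CPM in γδ T cell-like, 353 and 160 CPM in NK-like and 263 CPM and 262 CPM in αβ T cell-like cells. Of the other ligands of the family, 5 of 10 reached 50 CPM in a class. Cxcl13, which draws B cells through Cxcr5, stood at 337 and 699 CPM in Kupffer-like cells, a log2 ratio of −1.05 (−1.15 to −0.96). Cxcl11, the further Cxcr3 ligand, stood at 162 and 232 CPM in type 2 dendritic-like and at 41.8 and 17.7 CPM in classical monocyte-like cells. In type 1 dendritic-like cells it was lower in the tdTomato+ library, at 1.07 CPM (3 counts) against 71.8 CPM (log2 ratio −6.07, −8.35 to −4.50), the direction of the unstable Cxcl9 and Cxcl10 ratios in that class.

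The genes whose class profile was most like that of each ligand were found over 29 profiles, 17 tdTomato+ and 12 tdTomato- classes with at least 20 cells, and over 8726 genes, with Pearson's r of log2(CPM + 1). The profiles share their library and its free RNA, so r is a description. For Cxcl2 the likest genes were Fosl2 (r 0.86), Pgd (0.85), Ccrl2 (0.84), Stx11 (0.83) and Clec4e (0.82), of which Ccrl2 encodes a chemokine-binding receptor and Clec4e a lectin receptor of myeloid cells. For Cxcl9 they were Parp12 (0.86), Pnp (0.86), Cxcl16 (0.85), Garin4 (0.84) and Ifi202b (0.84), of which Parp12 and Ifi202b are interferon-induced. For Cxcl10 they were Hnrnpll (0.82), Cdkn1a (0.81), Cxcl9 (0.76), Parp12 (0.76) and Gbp2 (0.75). For Cxcl16 they included Gatm (0.94), Parvb (0.92), Nav1 (0.91) and Zfp366 (0.90), of which Gatm encodes an enzyme of creatine synthesis. The likest genes of Cxcl12, Neo1, Wwc1, Fgfr2, Fat1 and Lgals2, rest on levels near the floor of counts. Among the ligands themselves r was 0.76 between Cxcl9 and Cxcl10, 0.85 between Cxcl9 and Cxcl16, and 0.56 between Cxcl10 and Cxcl16. For Cxcl2 it was 0.42 with Cxcl10 (0.24 over tdTomato+ profiles alone, 0.59 over tdTomato- profiles), 0.28 with Cxcl9 and 0.01 with Cxcl16.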

How the data were processed

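Single-cell gene expression was read from 2 libraries of CD45+ liver cells, made with a 5′ kit. Per the file headers the authors made the deposited UMI counts with Cell Ranger 10.0.0, against mm10 per the submitters' processing notes. The receptor libraries were not used. A barcode was kept where it showed 300 or more genes and had 10% or less of its counts from mitochondrial genes. Counts were scaled to 10000 per cell, and cells were clustered jointly with scanpy 1.11.5 (2000 variable genes without CXC genes, 30 components, 15 neighbors, Leiden resolution 1) into 40 clusters and 215 sub-clusters. Each was named from markers, with limits set after the clusters had been seen. Scrublet called 1 barcode and had not worked, so doublets were set aside as sub-clusters with markers of 2 lineages. Counts were summed per class and library. With 1 library per condition no test was made, and the script for ratios was tested on simulated data. Intervals are 95% and cover counting error only. A count of 0 was read as allowing up to 3 counts. Named genes were the 5 ligand genes, the 5 likest genes of each by class profile, and genes of the lists of other CXC ligands, CXC receptors, processing enzymes, the interferon-γ side and early inflammatory genes with at least 50 CPM in a class. Members and lists were chosen with earlier results of these data known. RefSeq promoters (GRCm38.p6) matched 4 of the 5 genes. Values of some genes of these lists are not reported here.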

Additional observations from a re-analysis of the deposited data

Results flagged for a closer look

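The tdTomato+ over tdTomato- log2 ratio of Cxcl2 in type 2 dendritic-like cells, −1.15 (−1.66 to −0.66), ran opposite to the ratios in αβ T cell-like (1.77), γδ T cell-like (1.23) and type 1 dendritic-like cells (4.44), of which the last had 65.9% of its tdTomato+ counts in 1 cell. The ratio ran the same way in NK-like (−1.78), with 44 of 45 tdTomato- counts in 1 cell, and Kupffer-like cells (−0.65, −0.84 to −0.45). The type 2 dendritic-like ratio rested on 48 counts in 43 tdTomato+ cells against 131 counts in 54 tdTomato- cells, and was −1.10 (−1.77 to −0.46) without the richest cell of each library. In these cells Cd3e stood at 13.2 against 153 CPM and S100a8 and S100a9 summed at 0 against 56.8 CPM, and their part in the ratio was not tested. The difference between the classes was not tested.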

How the results depend on the processing

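No paired analysis was possible because each condition had 1 library. Of 722 values recomputed under the alternatives, 419 moved by less than their counting interval, 292 moved by more and 11 reversed; the cause was not tested. The settings without the richest cell, without shared barcodes and without cells holding S100a8 or S100a9 were chosen after the data had been seen. Values are given in the order Cxcl2 in neutrophil-like cells, then Cxcl9 and Cxcl10 in monocyte-like and type 2 dendritic-like cells as 1 class (tdTomato+ CPM), then log2 ratios between libraries in the same order. With at least 800 genes and at most 5% mitochondrial counts, levels were 17987, 919.8 and 987 CPM, the Cxcl2 and Cxcl9 ratios 0.23 and 1.33, and the Il17a-rich γδ ratio 5.75. With CXC genes among the clustering genes, levels were 15336, 639.9 and 882 CPM, the Cxcl2 and Cxcl10 ratios 0.091 and 2.11, and the γδ ratio 4.73; type 2 dendritic-like Cxcl9 reversed to −0.75, and type 1 dendritic-like Cxcl9 and Cxcl10 to 1.08 and 3.86. At resolution 0.5 levels were 15722, 27.1 and 98.8 CPM, the ratios 0.30, 1.91 and −0.48, Kupffer-like Cxcl16 −0.084 and the γδ ratio 7.45, and in classical monocyte-like cells Cxcl10 and Cxcl16 reversed to −0.42 and −0.47; 133 ligand-rich cells lost their name there. At resolution 2 the Cxcl9 and Cxcl10 levels were 891 and 985 CPM and Kupffer-like Cxcl16 −0.52. As a mean over cells, levels were 16991, 751 and 1063 CPM and 0.655 CPM for endothelial Cxcl12, the ratios −0.12, 1.58 and 2.27, Kupffer-like Cxcl16 −0.51 and the γδ ratio 7.71, with type 1 dendritic-like Cxcl9 and Cxcl10 at 0.67 and 0.19. Thinned, Cxcl2 and Cxcl9 levels were 18315 and 745 CPM and Cxcl12 0.618 CPM, the ratios −0.11, 1.60 and 2.09, the portal over central Cxcl9 ratio 1.95 and the γδ ratio 8.23, with type 1 dendritic-like Cxcl9 and Cxcl10 at 0.79 and 0.54. With a marker gate, levels were 13598, 519 and 642 CPM and 168 CPM for endothelial Cxcl16, the ratios 0.34, 1.66 and 1.94, the portal over central ratio 0.79, and type 1 dendritic-like Cxcl9 3.71. Without cells holding endothelial RNA, levels were 16246, 638 and 661 CPM, the ratios 0.16, 1.31 and 1.501, Kupffer-like Cxcl16 −0.67 and the γδ ratio 7.60. Without the richest cell, levels were 14302, 766 and 828 CPM and 0.677 CPM for Cxcl12, the Cxcl9 and Cxcl10 ratios 1.58 and 1.98 and the γδ ratio 7.18. Not thinned, 33.6%, 31.6% and 70.5% of tdTomato+ endothelial-like cells held Cxcl9, Cxcl10 and Cxcl16. Of the 5 likest genes, a pseudocount of 10 kept 2 for Cxcl2, 2 for Cxcl9, 2 for Cxcl12 and 3 for Cxcl16; the tdTomato+ library alone kept 2 for Cxcl2, 1 for Cxcl12 and 2 for Cxcl16; the tdTomato- library alone kept 2 for Cxcl2, 0 for Cxcl9, 3 for Cxcl10 and 0 for Cxcl12. Depth limits Cxcl12, and the 22 tdTomato- endothelial-like cells limit every ratio in that class.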

Other observations

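Cells set aside for carrying RNA of 2 lineages held much of the counts of these genes. In the tdTomato+ library 4957 cells with both endothelial and leukocyte RNA held 51% of the Cxcl2, 39.8% of the Cxcl9 and 42.6% of the Cxcl10 counts, at 213, 138 and 187 CPM. In the tdTomato- library 1943 cells with T cell RNA and RNA of a further lineage held 20.2% of the Cxcl2 counts, at 572 CPM, beside 920 CPM of S100a8 and S100a9 summed. Cells that took no name held Cxcl2 at 1032 CPM in the tdTomato+ and 515 CPM in the tdTomato- library, and neutrophil RNA in the proportion set by S100a8 and S100a9 would have brought 726 CPM in the former and 519 CPM in the latter.

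Rare classes gave values outside the comparisons. The 32 tdTomato+ mesenchymal-like cells held Cxcl9 at 44.8 CPM, and endothelial RNA would have brought 78.3 CPM. The 28 tdTomato+ cholangiocyte-like cells held Cxcl9 at 80.1 CPM (63.7–99.4), where endothelial RNA would have brought 39.8 CPM, and Cxcl16 at 89.8 CPM (72.4–110) in 89.3% of cells, not thinned, where it would have brought 33.3 CPM. Cxcl13, the B cell-attracting ligand, stood at 1916 CPM in the mesenchymal-like cells. Dpp4, whose protease shortens several CXC ligands, stood at 1025 CPM in tdTomato+ endothelial-like cells, and Adam10, a protease that sheds Cxcl16, at 200 CPM there and at 341 CPM in tdTomato+ Kupffer-like cells.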
